A study of Gallus gallus with 14 samples.

Results

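The genes described here are the nuclear genes of oxidative phosphorylation in chicken retina, taken as every gene whose symbol fits the naming patterns of the subunits of complexes I to V (NDUFA, NDUFB, NDUFC, NDUFS and NDUFV with a number, SDHA to SDHD, UQCR, COX4 to COX8 and ATP5) or is CYC1. The rule found 73 of the 18631 genes listed: 33 of complex I, 4 of complex II, 8 of complex III, 10 of complex IV, 16 of complex V, and 2 whose ATP5 symbols name proteins outside the complexes (ATP5S and ATP5SL). Of these genes 68 were autosomal, 4 were Z-linked (ATP5A1Z, ATP5I, NDUFS4 and COX7C) and 1 was W-linked (ATP5A1W). CYC1 was not among the listed genes. The rule used names only, with no measured value, though the gene set was chosen with earlier results of these data known. NDUFA4 carries a complex I symbol but is known as a subunit of complex IV and is counted there. COX7A2L is counted in complex IV by its symbol alone.

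Total RNA was sequenced from whole retinas of wild type White Leghorn chicks in 14 libraries. The 7 lens libraries came from chicks that wore -10 D lenses for 3 days, starting when they were 3 days old, and the 7 control libraries came from retinas labelled as controls. A minus lens places the image behind the retina, and the growing eye elongates towards it, a standard model of myopia. The age label of both groups is postnatal day 3, and the labels do not say whether the controls wore anything, nor in words that each library is a separate animal, so the p-values measure the spread between these libraries.

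Oxidative phosphorylation passes electrons from NADH and succinate through complexes I to IV of the inner mitochondrial membrane to oxygen and uses the resulting proton gradient to make ATP at complex V. Most of the subunits are encoded in the nucleus and imported, and the remainder come from the mitochondrial genome. The retina is known for its high demand for ATP, and photoreceptors concentrate mitochondria in their inner segments. In birds, males carry a pair of Z chromosomes and females a Z and a W, and dosage compensation of Z-linked genes is incomplete.

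The libraries held 30.8 to 41.4 M reads by the value of a single read in the deposited CPM (reads scaled to a common library total), and the listed genes summed to 303455 to 333242 CPM. A count of 3 reads, the limit that a count of 0 allows, stood at 0.0724 to 0.0973 CPM, for counting error only. The W-linked gene HINTW, no member of the gene set, was at 117 to 145 CPM in 5 libraries (lens replicate 4 and control replicates 2, 3, 4 and 7) and at 0.0243 to 0.549 CPM in the other 9 (6 lens and 3 control). The groups are therefore not balanced for W-linked RNA, and the results on the Z-linked genes are given with and without it as a term. Rod and cone markers were listed for 8 of 10 genes (GNAT2 among them), and their sum was 638 to 1068 CPM in lens libraries and 824 to 1118 CPM in control libraries. Of 10 red blood cell markers 1 was listed, at 0 to 0.0549 CPM. In whole tissue, fewer cells of a type and less RNA per cell cannot be told apart.

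The 73 genes together, the sex-linked ones included, summed to 975.4 ± 92.0 CPM in lens libraries and 947.1 ± 49.4 CPM in control libraries (SD, n = 7 each). That was 0.278% to 0.358% of the listed CPM in lens libraries and 0.272% to 0.319% in control libraries, or 28350 to 40344 reads per library. By mean level, 36 genes lay above 10 CPM and 6 below 1 CPM. Gene lengths were not used, so where CPM of different genes are set side by side they are not corrected for length. Of the 73 genes 71 passed the filter on low values, and the exceptions were COX8A and ATP5A1W.

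Lens and control retinas were compared to see whether these genes change while the eye compensates for the lens. With limma and Benjamini-Hochberg adjustment over all 14259 genes tested, 0 of the 71 tested genes passed an adjusted p of 0.05, where 0.0771% of all genes did. The lowest adjusted p was 0.196 (ATP5I). At an unadjusted p under 0.05 there were 8 of 71, or 11.3%, against 13.5% of all genes tested. Of the 71 genes 5 were higher with the lens, where 432 of all 14259 genes (3.03%) were. Another 3 of the 71 were lower, where 1498 of all genes (10.5%) were. Among autosomal genes alone 3 of 67 were higher and 3 lower, beside 260 higher and 1479 lower of all 13575 tested. ATP5I and COX7C, 2 of the 5 higher genes, are Z-linked and moved with W-linked RNA, as described below. The ranges of the lens and control libraries overlapped for all 73 genes, and the share of all genes with overlap is not given here. The interval plot shows how closely the autosomal ones lay around 0.

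**Figure D1:**
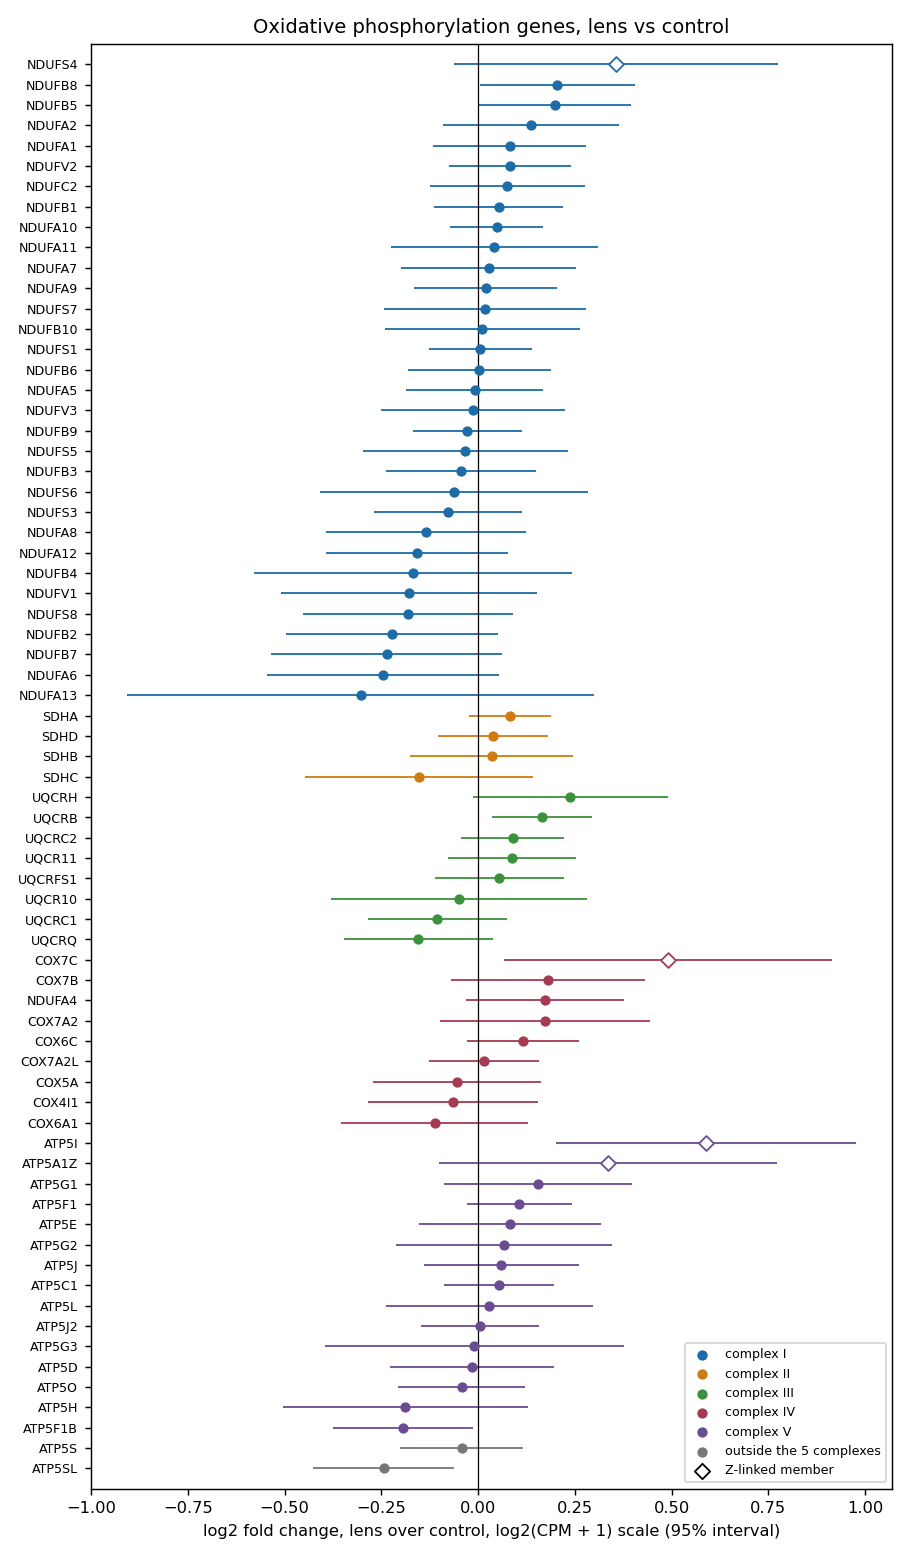
Log2 fold change of lens over control for 70 of the 71 tested genes on the log2(CPM + 1) scale, with 95% intervals, grouped by complex. Filled circles are autosomal genes and open diamonds the 4 Z-linked genes, whose fold changes of 0.34 to 0.59 lie to the right of every autosomal gene.

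The 67 tested autosomal genes had a median log2 fold change of 0.01, with 36 above and 31 below 0, beside a median of -0.04 for all autosomal genes tested. Since 1 was added to each CPM before taking logs, fold changes of low genes are understated. On that scale the 95% interval of 66 of the 67 lay within a 1.5-fold change in either direction (98.5%, against 96.0% of all autosomal genes). The exception was NDUFA13. For genes near or below 1 CPM this does not bound the change in CPM. ATP5SL is among the 66, though its mean CPM in lens libraries was 0.651 of that in control libraries. With W-linked RNA as a covariate the interval lay within the bound for 61 of the 67 (91.0%, against 94.7% of all autosomal genes). In the 9 libraries without W-linked RNA it was also 61 (91.0%, against 93.9%). The median standard error of these genes without the covariate was 0.10, against 0.09 for all autosomal genes. The autosomal medians were -0.01 for complex I (32 genes), 0.04 for complex II (4), 0.07 for complex III (8), 0.07 for complex IV (8) and 0.03 for complex V (13). Genes of the large chromosomes 1 to 9 had a median of 0.02 (34 genes) and those of the small chromosomes from 10 up 0.00 (33 genes), beside -0.03 and -0.07 for all genes there.

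Complex I oxidises NADH and hands the electrons to ubiquinone. NDUFB8, an accessory subunit of the membrane arm, had 4.81, 5.62 and 6.52 CPM as the lowest, median and highest lens library, against 3.53, 4.81 and 6.04 CPM in control libraries. The log2 fold change was 0.20 (SE 0.10, adjusted p = 0.358). NDUFB5, another membrane arm subunit, had 13.2, 16.1 and 17.9 CPM in lens libraries against 10.1, 13 and 16.4 CPM in control libraries, a log2 fold change of 0.20 (SE 0.09, adjusted p = 0.365). Both showed the higher median in lens libraries and overlapping ranges.

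Within complex I, the accessory subunit NDUFA10 averaged 47.8 ± 2.72 CPM in lens libraries and 46.3 ± 3.87 CPM in control libraries, with a log2 fold change of 0.05. The tested gene of the complex with the lowest mean CPM, NDUFA11, averaged 0.422 ± 0.204 CPM in lens libraries and 0.397 ± 0.302 CPM in control libraries, on 0 to 33 reads per library. It overlaps KLHL33 on the same strand, so its reads are uncertain. NDUFA13, an accessory subunit also known as GRIM-19 and chosen after its values were seen, had the largest spread within groups of all 71 tested genes. It had 3.42, 7.19 and 17.9 CPM in lens libraries against 6.02, 12.6 and 13.6 CPM in control libraries. The lens libraries hold both its lowest and its highest value, and the log2 fold change was -0.30 (SE 0.29, adjusted p = 0.669).

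Complex II is succinate dehydrogenase, which also serves the tricarboxylic acid cycle and is encoded wholly in the nucleus. SDHA, the flavoprotein that oxidises succinate, had the smallest spread within groups of the 71 genes. Its levels were 60.6, 62.6 and 65.2 CPM in lens libraries and 51.7, 59.4 and 66.5 CPM in control libraries, and the narrow lens range lay inside the control range. Its log2 fold change was 0.08 (95% interval -0.02 to 0.19, adjusted p = 0.486). The membrane anchor SDHD averaged 10.6 ± 0.716 CPM in lens libraries and 10.3 ± 0.882 CPM in control libraries. The other anchor, SDHC, averaged 2.0 ± 0.671 CPM in lens libraries and 2.33 ± 0.724 CPM in control libraries, with a log2 fold change of -0.15 (SE 0.14). The iron-sulfur subunit SDHB averaged 12.2 ± 2.02 CPM in lens libraries and 11.8 ± 1.81 CPM in control libraries. None of the 4 genes passed at an unadjusted p of 0.05.

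Complex III transfers electrons from ubiquinol to cytochrome c. UQCRB, the ubiquinone-binding subunit, had the lowest p of the complex. It had 19.4, 20.3 and 22.1 CPM in lens libraries and 15.6, 17.9 and 20.2 CPM in control libraries. The lens libraries lay in the upper part of the control range or above it, on 588 to 887 reads per library. The log2 fold change was 0.17 (SE 0.06, adjusted p = 0.252), and 0.14 with W-linked RNA as a covariate (adjusted p = 0.440). UQCRH, the acidic hinge protein of the complex, averaged 12.5 ± 2.44 CPM in lens libraries and 10.4 ± 1.85 CPM in control libraries (log2 fold change 0.24, adjusted p = 0.396). UQCRQ, a small subunit, had the opposite sign, with 6.39 ± 1.00 CPM in lens libraries against 7.20 ± 0.779 CPM in control libraries (log2 fold change -0.15, adjusted p = 0.468). The core protein UQCRC2 and the small subunit UQCR11 both had a log2 fold change of 0.09.

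Complex IV, cytochrome c oxidase, reduces oxygen to water, and several of its nuclear subunits exist as tissue isoforms in vertebrates. NDUFA4 had 35.0, 44.1 and 48.6 CPM in lens libraries and 30.3, 41 and 46.1 CPM in control libraries, with overlapping ranges and a log2 fold change of 0.17 (SE 0.10, adjusted p = 0.444). In the 9 libraries without W-linked RNA its log2 fold change was 0.38 (adjusted p = 0.266). COX6C averaged 20.5 ± 1.95 CPM in lens libraries and 18.9 ± 1.74 CPM in control libraries (log2 fold change 0.12). The matrix-facing subunit COX5A was low, at 0.881 ± 0.305 CPM in lens libraries and 0.948 ± 0.260 CPM in control libraries, and it overlaps FAM219B on the same strand.

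Of the isoforms, COX4I1, COX6A1 and COX7A2 were measured at several CPM or more, and COX8A was close to 0. COX4I1 averaged 29 ± 4.47 CPM in lens libraries and 30.5 ± 5.34 CPM in control libraries. COX6A1 averaged 6.49 ± 1.39 CPM in lens libraries and 7.07 ± 1.12 CPM in control libraries. COX7A2 averaged 10.4 ± 2.36 CPM in lens libraries and 9.09 ± 1.73 CPM in control libraries, a log2 fold change of 0.17 (adjusted p = 0.579). COX4I2, COX6A2, COX7A1 and NDUFA4L2 were not among the listed genes and were not analysed here. COX8A stayed near the limit of detection, with 0, 0.0749 and 0.162 CPM in lens libraries and 0.0258, 0.0637 and 0.157 CPM in control libraries, on 0 to 6 reads, and was not tested.

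Complex V, the ATP synthase, joins a catalytic head in the matrix to a proton-driven rotor in the membrane. ATP5F1B encodes the catalytic beta subunit and had the lowest p of the autosomal genes of the complex. It had 35.2, 40.9 and 52.0 CPM in lens libraries and 40.2, 48.7 and 58.1 CPM in control libraries. The highest lens value was replicate 6, and the other 6 lens libraries lay at 41.5 CPM or less, at the low end of the control range or below it. The log2 fold change was -0.19 (SE 0.09, adjusted p = 0.337). ATP5F1, subunit b of the peripheral stalk, averaged 34.6 ± 1.32 CPM in lens libraries and 32.2 ± 3.70 CPM in control libraries (log2 fold change 0.11).

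Subunit c of the rotor ring is encoded by several genes that give the same mature protein, here under the older symbols ATP5G1, ATP5G2 and ATP5G3. ATP5G1 averaged 4.90 ± 1.16 CPM in lens libraries and 4.23 ± 0.477 CPM in control libraries. ATP5G2 averaged 2.28 ± 0.753 CPM in lens libraries and 2.11 ± 0.503 CPM in control libraries, and it overlaps ATF7 on the same strand. ATP5G3 averaged 5.76 ± 2.51 CPM in lens libraries and 5.54 ± 1.13 CPM in control libraries. Their log2 fold changes were 0.15, 0.07 and -0.01, and the sign for ATP5G3 turned under several scalings.

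In all, 20 of the 73 genes share genomic sequence with another listed gene, 5 on the same strand and 15 on the opposite one, SDHA (with CCDC127) and SDHD (with IL18) among the 15. ATP5J, for the coupling factor 6 subunit of the stalk, lies opposite GABPA, which encodes a subunit of nuclear respiratory factor 2. ATP5J averaged 10.5 ± 1.27 CPM in lens libraries and 10.1 ± 1.61 CPM in control libraries, and GABPA 25 ± 1.76 CPM in lens libraries and 26.3 ± 1.44 CPM in control libraries. Whether the counting used strand is not given in the sources used here, so reads of such pairs cannot be told apart.

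The 2 ATP5 symbols outside the complexes gave low values. ATP5SL, an older symbol of DMAC2, a factor for the assembly of complex I, was also chosen after its values were seen. It had 0.242, 0.592 and 0.749 CPM in lens libraries and 0.499, 0.785 and 0.989 CPM in control libraries, on 10 to 36 reads. Its log2 fold change was -0.24 (SE 0.09, adjusted p = 0.232), and -0.29 with W-linked RNA as a covariate. ATP5S, known as coupling factor B, averaged 0.634 ± 0.167 CPM in lens libraries and 0.678 ± 0.110 CPM in control libraries.

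The Z-linked genes stood apart from the autosomal ones. Their median log2 fold change of lens over control was 0.42, with 4 of 4 above 0, beside 0.17 for all 665 Z-linked genes tested. ATP5I (chromosome Z, 53569023 to 53570892), subunit e of the ATP synthase, which holds its dimers together, had 11.7, 18.7 and 23.6 CPM in lens libraries and 7.54, 10.9 and 20.7 CPM in control libraries. Its log2 fold change was 0.59 (SE 0.18, adjusted p = 0.196). COX7C (chromosome Z, 61440589 to 61443096), a small subunit of complex IV, had 7.84, 16.2 and 18.2 CPM in lens libraries and 5.97, 9.07 and 16.2 CPM in control libraries. This gave a log2 fold change of 0.49 (SE 0.20, adjusted p = 0.300).

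NDUFS4 (chromosome Z, 16103554 to 16149326), a matrix arm subunit of complex I whose loss causes Leigh syndrome in people, had 8.07, 16.9 and 19.2 CPM in lens libraries and 8.23, 9.10 and 18.4 CPM in control libraries. Its log2 fold change was 0.36 (SE 0.20, adjusted p = 0.439). ATP5A1Z (chromosome Z, 2151344 to 2159327), the Z copy of the catalytic-head subunit alpha of the ATP synthase, had 25.3, 52.5 and 59.9 CPM in lens libraries and 25.8, 31.2 and 60.4 CPM in control libraries. This gave a log2 fold change of 0.34 (SE 0.21, adjusted p = 0.490). In each of these 4 genes lens replicate 4, the lens library with W-linked RNA, was the lowest of its group.

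With W-linked RNA as a covariate the log2 fold changes of lens over control became 0.26 for ATP5I (adjusted p = 0.413), 0.10 for COX7C, -0.04 for NDUFS4 and -0.08 for ATP5A1Z. Their median was then 0.03, beside -0.00 for all Z-linked genes. Within the 9 libraries without W-linked RNA (6 lens and 3 control) the median was 0.04, with 0.25 for ATP5I, 0.10 for COX7C, -0.02 for NDUFS4 and -0.06 for ATP5A1Z. The 5 libraries with W-linked RNA include a single lens library and give no value of their own. The fold changes of the autosomal genes moved less, as the plot of both fits shows, though NDUFA13 went from -0.30 to -0.52 and NDUFA6 from -0.25 to -0.41.

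**Figure D2:**
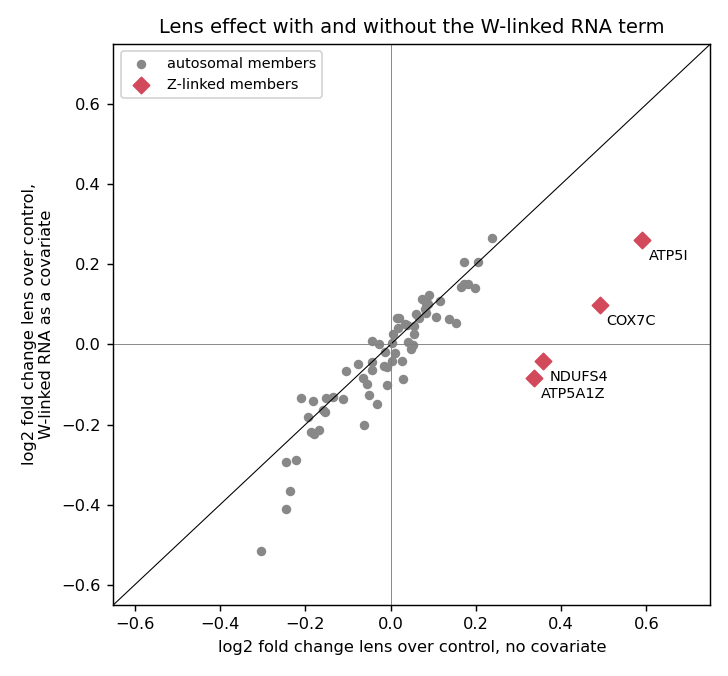
Log2 fold change of lens over control for the 71 tested genes without a covariate (horizontal axis) and with W-linked RNA as a covariate (vertical axis). Grey points are autosomal genes and red diamonds the 4 Z-linked genes, which lie below the line of equality, ATP5A1Z at 0.34 and -0.08.

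The difference between libraries with and without W-linked RNA was then tested with treatment as a term. Of the 4 Z-linked genes 4 passed, all lower with W-linked RNA, where 2.48% of all genes and 51.4% of the 665 Z-linked genes were called lower. Of the 67 autosomal genes 0 passed (0.214% of all autosomal genes did), the lowest adjusted p being 0.288 for NDUFA6, and 2 had an unadjusted p under 0.05, where 7.41% of all autosomal genes did. ATP5A1Z averaged 27.7 ± 2.46 CPM in the 5 libraries with W-linked RNA and 54.2 ± 5.34 CPM in the 9 without (log2 difference -0.98, SE 0.08, adjusted p = 3.3e-07). NDUFS4 averaged 8.52 ± 0.401 CPM with and 16.9 ± 1.74 CPM without W-linked RNA (-0.93, SE 0.08, adjusted p = 9.5e-07).

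COX7C averaged 7.49 ± 1.12 CPM with and 15.5 ± 1.70 CPM without W-linked RNA (log2 difference -0.91, SE 0.10, adjusted p = 8.8e-06). ATP5I averaged 9.91 ± 1.57 CPM with and 19.3 ± 3.30 CPM without (-0.76, SE 0.12, adjusted p = 0.000509). For none of the 4 did the libraries with and without W-linked RNA overlap, and the share of all Z-linked genes without overlap is not given here. The ratios of the means were 0.511 for ATP5A1Z, 0.503 for NDUFS4, 0.484 for COX7C and 0.514 for ATP5I. The median log2 difference of all 665 Z-linked genes was -0.37. Counted from the lowest, ATP5A1Z stood at rank 3, NDUFS4 at 7, COX7C at 9 and ATP5I at 51. On the log2(CPM + 1) scale the differences of low genes are understated, so this median and these ranks depend in part on level. Ranks among genes of similar level, or at other pseudocounts, are not given here. The plot of these genes by library shows the separation inside both treatment groups.

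**Figure D3:**
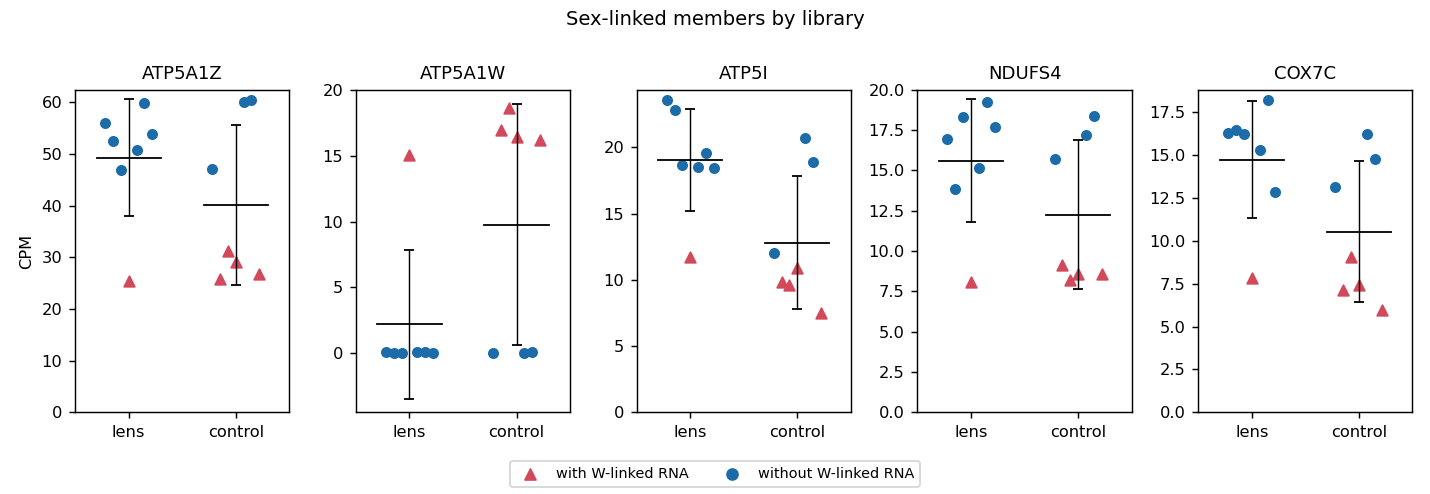
CPM of the 5 sex-linked genes in each library, lens left and control right, with the mean and SD of each group as bars. Red triangles are the 5 libraries with W-linked RNA and blue circles the 9 without, and in every Z-linked panel the triangles lie below the circles.

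ATP5A1W (chromosome W, 1391533 to 1453514) is the W copy of the alpha subunit gene and, like HINTW, a classical marker for sexing birds. It had 15.1 to 18.7 CPM (538 to 711 reads) in the 5 libraries with W-linked RNA and 0 to 0.0999 CPM (0 to 4 reads) in the 9 without. The W copy made up 36.1% to 39.7% of the summed CPM of both copies where W-linked RNA was present, with no correction for length. The sum averaged 44.3 ± 3.59 CPM in the 5 libraries with W-linked RNA and 54.2 ± 5.36 CPM in the 9 without, a ratio of 0.818. A two-sided exact permutation test on log2(CPM + 1), with no term for treatment, gave p = 0.003996 (adjusted over 3 tests 0.003996). The ranges were 40.4 to 49.9 CPM with and 46.9 to 60.5 CPM without W-linked RNA, and they overlapped. Between treatments the sum averaged 51.5 ± 6.39 CPM in lens libraries and 49.8 ± 7.52 CPM in control libraries (exact permutation test, p = 0.631). That test held no term for W-linked RNA, which 1 lens and 4 control libraries had, so these means carry the imbalance. With W-linked RNA the sum was 40.4 CPM in the lens library and 42.8 to 49.9 CPM in the control libraries. Without it the sum was 46.9 to 59.99 CPM in lens libraries and 47.1 to 60.5 CPM in control libraries. A treatment difference in the sum at equal W-linked RNA was not tested. The sum was examined after the values of the copies were seen, and reads shared between such similar copies may have been placed on either.

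Among the libraries, lens replicate 6 stood highest more often than any other. The median deviation of its autosomal genes from their mean over 14 libraries was 0.27 on the log2 scale, where all genes tested had 0.04 in that library. Another 4 mitochondrial lists, though not the regulators, were also at their highest there, with autosomal medians of 0.16 for the tricarboxylic acid cycle, 0.13 for mitochondrial ribosomal proteins, 0.10 for assembly factors and 0.10 for import. The deviation lay between 0.23 and 0.32 in each of the 5 complexes, and 32 of the 67 autosomal genes had their highest value there. The lowest libraries were lens replicate 4, at -0.15, and lens replicate 3, at -0.12. Lens replicate 6 also had the fewest reads (30.8 M). Its marker sums were highest among lens libraries for rods and cones (1068 CPM), Müller glia (976 CPM), oligodendrocytes (175 CPM) and microglia (6.45 CPM). Control libraries reached up to 1118 CPM for rods and cones, 1041 CPM for Müller glia and 7.96 CPM for microglia. For oligodendrocytes they reached 145 CPM, below lens replicate 6. Single markers differed, with SLC1A3 (Müller glia) and C1QB (microglia) at their lowest of the 14 libraries there. Its sums for bipolar, amacrine, horizontal, ganglion and pigment epithelium cells were not the highest. The part of read depth and cell types in its level was not tested. Without lens replicate 6 the autosomal median of lens over control was -0.04, 0 genes passed, and 2 genes were higher and 8 lower at an unadjusted p under 0.05. The share of all genes in that fit is not given here, so the 2 counts are not set against it. The shares of all genes with all 14 libraries, 3.03% higher and 10.5% lower, belong to another fit and are no background for these counts.

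**Figure D4:**
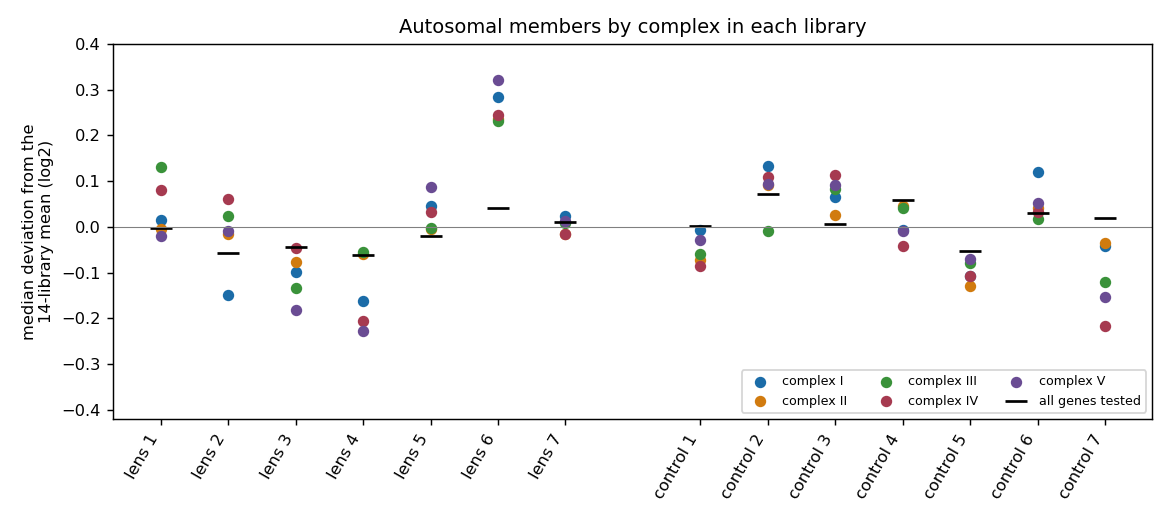
Median deviation of the autosomal genes of each complex from their 14-library mean (log2 scale) in each library, lens libraries left and control libraries right. Black dashes are the medians of all genes tested, and lens replicate 6 stands above the rest in all 5 complexes (0.23 to 0.32).

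The autosomal genes varied together across libraries, as a description over 14 libraries that share depth and scaling. After removal of group means the median Pearson correlation over 2211 pairs was 0.29, beside 0.06 for pairs of all autosomal genes tested, both with all 14 libraries. Without lens replicate 6 it was 0.19 for the 2211 pairs, and the value for all autosomal genes is not given here. The pairs of all genes were not matched for level. By complex the median was 0.55 within complex V, 0.26 within complex I, 0.23 within complex III, 0.14 within complex IV and 0.05 within complex II. These medians by complex include lens replicate 6. Of the 67 genes 39 correlated above 0.5 with the median of the others, and 6 were below 0. The share of all autosomal genes above 0.5 with that median is not given here, so the count is not set against it. Lens replicate 6, where the median deviation was 0.27, is included, and the correlations were not recomputed without it. SDHB (0.91), NDUFS7 (0.90) and NDUFB10 (0.89) were the most like that median, and ATP5S (-0.62), COX7B (-0.32) and SDHD (-0.23) the least. SDHB and NDUFS7 carry iron-sulfur clusters of complexes II and I, and COX7B is a small subunit of complex IV.

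Other genes of the mitochondrial energy pathway gave the same count of 0 that passed in lens against control in each list, and the numbers here are at an unadjusted p under 0.05, where 3.03% of all genes were higher and 10.5% lower. Of 43 tested assembly factors 2 were higher, the Z-linked NDUFAF2 among them, and 2 lower (median log2 fold change -0.01). NDUFAF2 had a log2 fold change of 0.30, and of 0.10 with W-linked RNA as a covariate. UQCC3, for the assembly of complex III, averaged 0.893 ± 0.361 CPM in lens libraries and 1.39 ± 0.312 CPM in control libraries (-0.35, adjusted p = 0.213). COA5, for complex IV, averaged 20.6 ± 4.06 CPM in lens libraries and 16.5 ± 3.04 CPM in control libraries (0.30, adjusted p = 0.276). The 2 Z-linked assembly factors, named after their values were seen, were lower with W-linked RNA, NDUFAF2 by a log2 difference of -0.46 (adjusted p = 0.0145) and LYRM7 by -0.90 (adjusted p = 4.6e-06).

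Of the subunits and electron carriers outside the symbol rule 4 were tested, with none at an unadjusted p under 0.05. CYCS, which encodes cytochrome c, had a log2 fold change of 0.11, and ETFA, a subunit of the electron transfer flavoprotein, -0.13. Of 16 tricarboxylic acid cycle genes 1 was higher and 3 lower (median -0.04). The cycle enzyme OGDH averaged 2.99 ± 0.677 CPM in lens libraries and 3.95 ± 0.516 CPM in control libraries (-0.32, adjusted p = 0.218). IDH3B, a subunit of the NAD-dependent isocitrate dehydrogenase, averaged 8.34 ± 2.21 CPM in lens libraries and 10.7 ± 1.53 CPM in control libraries (-0.35, adjusted p = 0.228).

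Of 15 regulators of mitochondrial genes 0 were higher and 2 lower (median -0.07). NRF1, a transcription factor for nuclear respiratory genes, averaged 5.13 ± 0.571 CPM in lens libraries and 6.74 ± 0.930 CPM in control libraries (-0.33, adjusted p = 0.150). The coactivator PPARGC1B averaged 1.10 ± 0.210 CPM in lens libraries and 1.51 ± 0.230 CPM in control libraries (-0.26, adjusted p = 0.206). Neither passed the test. Of 19 genes of mitochondrial import and the outer membrane 1 was higher and 2 lower (median -0.01). SLC25A4, an exchanger of ADP for ATP, averaged 1.65 ± 0.315 CPM in lens libraries and 3.28 ± 1.42 CPM in control libraries (-0.64, adjusted p = 0.144). Its paralog SLC25A5 had a log2 fold change of -0.38 (adjusted p = 0.255).

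Of 74 genes for mitochondrial ribosomal proteins 5 were higher and 2 lower (median 0.01). The higher ones included the Z-linked MRPL50 and MRPS36, at 0.30 and 0.26, and at 0.12 and 0.10 with W-linked RNA as a covariate. MRPL9 averaged 1.86 ± 0.315 CPM in lens libraries and 2.54 ± 0.608 CPM in control libraries (-0.30, adjusted p = 0.234), and MRPL4 had -0.19 at levels near the limit of detection. Of 4 oxygen-linked partners 0 were higher and 1 lower. EGLN3, an oxygen-sensing prolyl hydroxylase, averaged 9.92 ± 2.96 CPM in lens libraries and 15.4 ± 7.47 CPM in control libraries (-0.52, adjusted p = 0.321). PDK1, the kinase that inhibits pyruvate dehydrogenase, averaged 19.2 ± 0.945 CPM in lens libraries and 18.9 ± 1.35 CPM in control libraries. The 13 protein genes of the mitochondrial genome were not among the listed genes and were not analysed here.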

How the data were processed

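Retinal total RNA libraries were made with a stranded kit after depletion of ribosomal RNA, per the labels' protocols. STAR and Partek were used with GRCg6a, per the submitters' processing notes; the versions, the annotation and the counting method, strand use included, are not given in the sources used here. The unit of the deposited table was read from its values: the authors deposited CPM with an added offset of 0.0001, which was subtracted. Then 93.2% of low values (92.8% to 93.6% by library, up to 200 reads) were within 0.02 of a whole number of equal steps, and the step was taken as 1 read. Such reads carry no molecular identifiers and are not independent molecules. Positions are the deposited ones, and chromosome names follow GRCg7b, to which 15697 of 18631 symbols matched.

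Genes reaching 0.5 CPM, computed on the column sum, in at least 7 libraries were tested. The log2(CPM + 1) of the deposited values was fitted with limma 3.58.1 (eBayes with trend) in R 4.3.3, two-sided, adjusted over all genes tested. Libraries with HINTW above 10 CPM were called with W-linked RNA. The lens against control test was also run on simulated counts, drawn independently for each gene at a fixed dispersion and without the imbalance in W-linked RNA. Its outcome is not given here. Figures used matplotlib 3.10.9, and tables used pandas 2.3.3, SciPy 1.17.1 and NumPy 2.4.6 under Python 3.11.15.

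The text names the Z-linked genes, those that passed, up to 3 of each complex with the smallest p, the highest and lowest of each complex, the tissue isoforms, those below the filter, and up to 2 of each pathway list; 1 gene so named is not reported here. The members and lists were chosen with earlier results of these data known. Alternatives were other pseudocounts (0.1 and 5), filters, scalings and variance models, a covariate (W-linked RNA or the letter that ends the sample code), the 9 libraries without W-linked RNA, each library left out, and, added after seeing the data, voom on recovered reads.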

Additional observations from a re-analysis of the deposited data

Results flagged for a closer look

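The highest or lowest library stood apart from the other 6 of its group by Dixon's criterion in 9 of 72 groups of values examined. Chance flags about 1 in 20 of independent groups. The groups here share libraries, so that rate is no background for the 9 flags. In the lens group 3 of these were lens replicate 4, the lens library with W-linked RNA: ATP5A1W was at 15.1 CPM there and at 0 to 0.0999 CPM in the others, ATP5A1Z at 25.3 CPM against 46.9 to 59.9 CPM, and ATP5I at 11.7 CPM against 18.4 to 23.6 CPM. Another 3 were lens replicate 6: ATP5F1B was at 52.0 CPM there and at 35.2 to 41.5 CPM in the others, UQCRQ at 8.5 CPM against 5.42 to 6.54 CPM, and the median deviation of complex II at 0.24 (log2) against -0.08 to -0.00. UQCRB was at 22.1 CPM in lens replicate 5 and at 19.4 to 20.4 CPM in the other lens libraries. SDHC was at 3.92 CPM in control replicate 2 and at 1.73 to 2.23 CPM in the other controls. UQCRC2 was at 25.4 CPM in control replicate 1 and at 30.3 to 33.5 CPM in the other controls.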

How the results depend on the processing

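In each alternative run for lens against control 0 genes passed. For W-linked RNA 4 of 4 Z-linked genes passed under the other pseudocounts, filters, scalings and variance models, without the treatment term, by voom and with each library left out; the sample code letter was not tried there. The count at an unadjusted p under 0.05 was 8 and became 5 with a covariate for W-linked RNA and 5 in the 9 libraries without it (4 to 13 with a library left out). With the covariate that was 7.04% of the 71 tested genes, against 11.2% of all genes tested. In the 9 libraries it was 7.04% against 8.08%. The part higher in lens, 5, became 11 with median ratio scaling, 10 with quantile normalization, 9 with equal column sums and 2 with the covariate (2 to 9 with a library left out). The part lower in lens, 3, became 1 with median ratio scaling and 1 in the 9 libraries (1 to 8). The autosomal median stayed between -0.04 and 0.06. The shares of all genes under the scalings, and with a library left out, are not given here. The counts there are therefore not set against all genes. The cause of these moves was not tested.

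Of 28 genes compared, 20 kept their sign throughout, and the lowest adjusted p of any in any setting was 0.0775. ATP5A1Z and NDUFS4 turned to -0.085 and -0.042 with the covariate and -0.060 and -0.024 in the 9 libraries. ATP5G3 turned to 0.0070 (pseudocount of 5), 0.033 (median ratio), 0.065 (quantile), 0.013 (equal sums) and 0.12 (9 libraries), and ran from -0.15 to 0.094 with a library left out. COX4I1 turned to 0.0048 in the 9 libraries, COX5A to 0.022 with quantile normalization and NDUFA10 to -0.012 with the covariate. With a library left out, ATP5G2 ran from -0.031 to 0.12 and NDUFA11 from -0.032 to 0.12. NDUFA11, with 0 to 33 reads, had 0.23 at a pseudocount of 0.1 and 0.66 by voom (adjusted p = 0.85 and 0.731).

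No paired analysis was possible because lens and control sample codes share no number. A planned quasi-likelihood count test was not run, since the values as deposited, with their offset, could not be taken as whole reads; voom on the reads recovered after subtraction was used instead. Depth limits COX8A, NDUFA11, COX5A, ATP5S and ATP5SL, which rest on at most 60 reads per library.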
